A study of Homo sapiens with 16 samples.

Results

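The subject is the set of nuclear-encoded subunits of the mitochondrial respiratory chain and ATP synthase, measured by poly(A) RNA sequencing in cultured human mesenchymal stromal cells (MSCs). Members were protein-coding genes taken by symbol: the NDUF subunits with a class letter and number, the 4 SDH genes, the UQCR genes with CYC1, the main COX subunits and the ATP5 genes. The rule gave 76 of the 60649 gene identifiers in the count table. Of these, 36 belong to complex I, 4 to complex II, 9 to complex III, 12 to complex IV and 15 to ATP synthase (complex V). NDUFA4, first described in complex I, was placed in complex IV.

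All 16 libraries came from ASC52telo, a telomerase-immortalised MSC line from adipose tissue labelled wt, so every value describes 1 immortalised line. There were 4 groups of 4 libraries, named as biological replicates in the study's methods. MmC-/GDF11- cells were intact controls, called young in the study, and MmC-/GDF11+ cells were intact cells given GDF11. MmC+/GDF11- cells were made senescent by 18 h in 1.5 µg/mL mitomycin C (MmC), a DNA-crosslinking agent, and MmC+/GDF11+ cells received the same MmC treatment and then GDF11. GDF11 is a secreted protein of the TGF-beta family and was used at 10 ng/mL during the 10 days after the MmC step. The labels give every library the same run identifier as its batch; the study names batch effects among its limits without tying them to libraries.

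The respiratory chain sits in the inner mitochondrial membrane. Complexes I and II pass electrons from NADH and succinate to ubiquinone, complex III passes them on to cytochrome c, and complex IV hands them to oxygen; the proton gradient built on the way drives ATP synthase. Complexes I, III, IV and V combine nuclear-encoded subunits with others encoded by mitochondrial DNA (mtDNA), whereas complex II is wholly nuclear-encoded.

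Libraries held between 71275337 and 144204979 counts. The MmC label was checked on known genes: CDKN1A, which encodes the cell cycle inhibitor p21, lay at 1040 to 2031 CPM (counts scaled to library size) in the MmC+ libraries and at 166 to 375 CPM in the MmC- libraries, and the proliferation marker MKI67 lay at 13.7 to 49.8 CPM against 77.5 to 163 CPM. MKI67 was therefore lower but still read in every MmC+ library. The 5 MSC surface markers examined (NT5E, THY1, ENG, CD44, ITGB1) summed to 4735 to 6428 CPM per library. The 10 markers of leukocytes, endothelium, epithelium and adipocytes summed to 46.2 to 68.5 CPM in MmC-/GDF11-, 49.3 to 68.4 CPM in MmC-/GDF11+, 29.9 to 40.6 CPM in MmC+/GDF11- and 28.4 to 42.8 CPM in MmC+/GDF11+, with HLA-DRA at 0 in every library; of the 6 that could be tested, 3 were higher (CD14, PECAM1, VWF) and 2 lower (CDH5, KRT18) after MmC without GDF11, and their part in the results was not tested.

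Transcripts of the chain subunits fell after MmC. Without GDF11, 42 of the 75 tested members were lower in the senescent cells and 1 was higher, at an adjusted p under 0.05 (edgeR quasi-likelihood test, Benjamini-Hochberg over 19103 genes). With GDF11 present, 54 were lower and 0 higher. Over all tested genes, 45.3% were called without GDF11 (22.9% of all tested genes higher and 22.4% lower), and 46.7% were called with GDF11 (23.4% higher and 23.3% lower). The members were thus called in shares of 57.3% and 72%, almost all in the lower direction. The median log2 fold change (MmC+ over MmC-) of the members was -0.35 without GDF11 and -0.45 with it, against -0.01 and -0.01 over all tested genes. In 34 members every senescent library lay below every intact library without GDF11, and in 1 every senescent library lay above, against 18.2% and 19.1% of all genes (37.3% in either direction); with GDF11 the counts were 47 and 0, against 21.2% and 20.2% (41.5%). A total of 41 members were lower in both comparisons, 2 were called without GDF11 alone (COX5A, lower, and NDUFA7, higher), 13 with GDF11 alone, and 19 in neither. Of all 19103 tested genes, 3795 were lower and 3879 higher in both comparisons, 981 were called without GDF11 alone, 1252 with GDF11 alone, and 9196 in neither.

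The difference was also seen in the summed level of the 76 members per library. The sum was 5841, 8051, 6583 and 6038 CPM in the MmC-/GDF11- libraries, 6416, 7601, 7921 and 6297 CPM in MmC-/GDF11+, 5075, 5228, 5124 and 4761 CPM in MmC+/GDF11-, and 5319, 5279, 4951 and 4635 CPM in MmC+/GDF11+. Every MmC+ library lay below every MmC- library. The mean fell by 23.9% without GDF11 and by 28.5% with it. In bulk RNA, fewer cells that carry these transcripts and less of the transcripts per cell cannot be told apart.

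**Figure D1:**
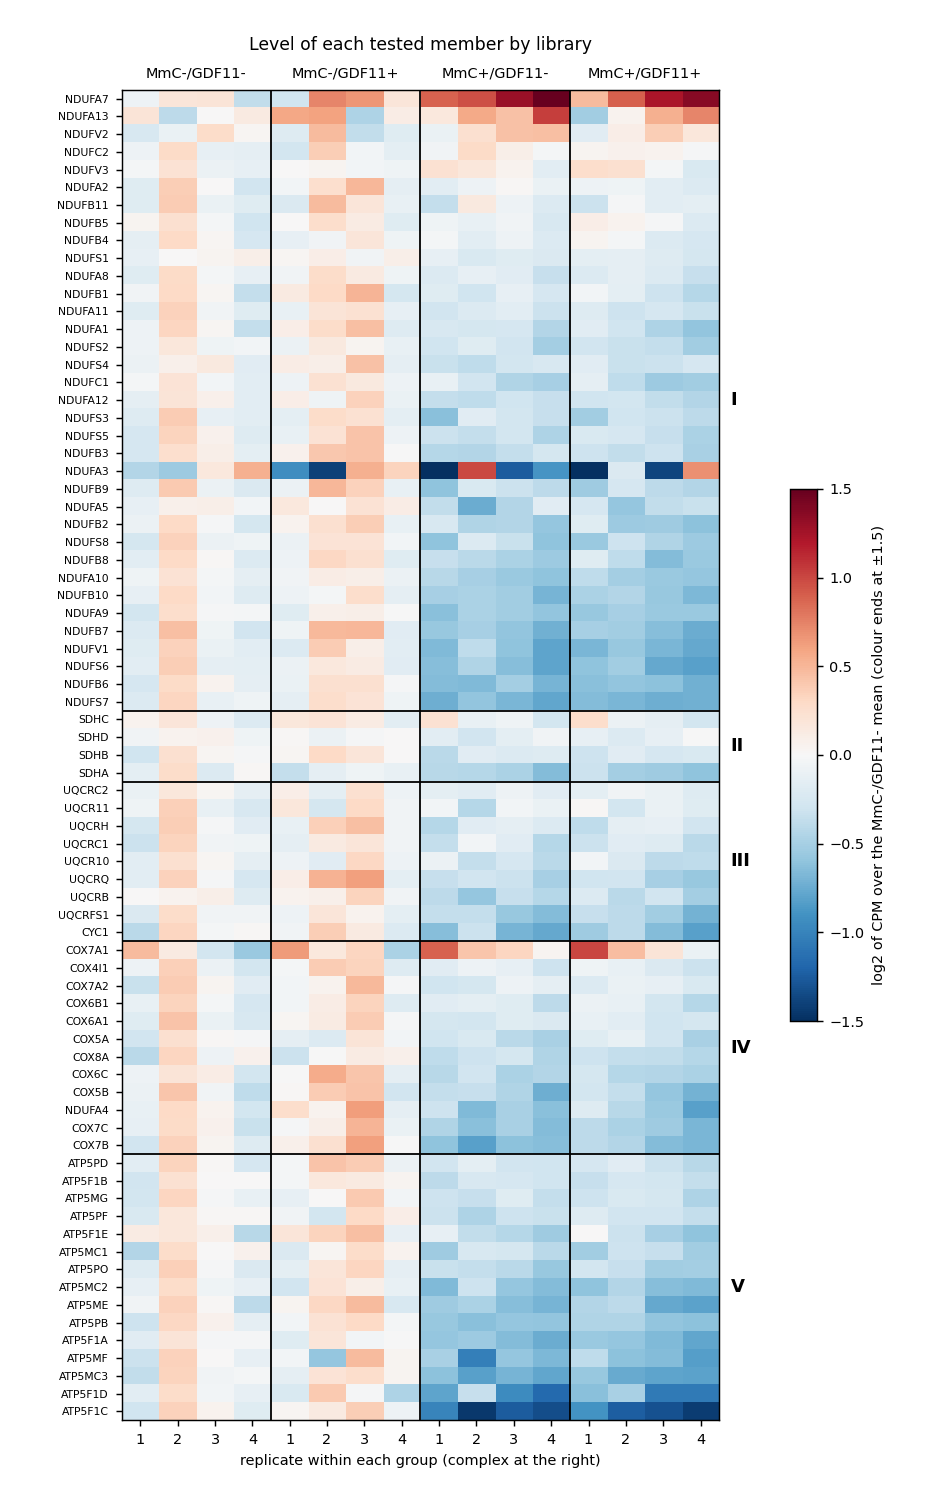
Level of each of the 75 tested members in each library, as log2 of its CPM over the MmC-/GDF11- mean; rows are members grouped by complex, columns are the 4 replicates of each group, and colours end at ±1.5. Most rows turn blue in the 8 MmC+ columns, and replicate 2 of MmC-/GDF11- is red in most rows.

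The intact libraries were the more variable ones. The median coefficient of variation of a member within its group was 17.5% in MmC-/GDF11- and 15.7% in MmC-/GDF11+, against 7.23% in MmC+/GDF11- and 8.23% in MmC+/GDF11+. Replicate 2 held the highest value of MmC-/GDF11- for 65 of the 75 members, whereas in MmC-/GDF11+ replicate 3 did so for 43 and replicate 2 for 30. Without replicate 2 of MmC-/GDF11-, 25 members were lower after MmC without GDF11 and 1 was higher. Of all genes, 39.5% were then called in either direction and 18.8% were called lower. Without replicate 4 of MmC+/GDF11-, 27 members were lower and 1 higher, with 39.8% of all genes called and 18.9% called lower. In both cases all but 1 of the members called were lower. Of the 43 calls made without GDF11, 25 were kept whichever of the 16 libraries was left out, and of the 54 made with GDF11, 41 were.

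ATP synthase had the largest share of its members called lower. Of its 15 members, 12 were lower after MmC without GDF11 and 15 with GDF11, with median log2 fold changes of -0.55 and -0.57. Those lower were 80% and 100%, against 22.4% and 23.3% of all tested genes. Their summed level was 2126, 2958, 2481 and 2333 CPM in MmC-/GDF11- and 1748, 1797, 1739 and 1658 CPM in MmC+/GDF11-, a fall of the mean by 29.9%. With GDF11 it was 2343, 2812, 2836 and 2420 CPM in intact cells and 1824, 1815, 1691 and 1600 CPM in senescent cells, a fall by 33.4%. The groups did not overlap in either comparison.

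ATP5F1C, which encodes the gamma subunit that turns inside the catalytic head, had the largest fall of all members. It lies on the forward strand at chr10:7788147-7807815 (hg38). Its level was 127, 198, 162 and 137 CPM in MmC-/GDF11- and 78.7, 57.3, 65.7 and 62 CPM in MmC+/GDF11-; in the presence of GDF11 it was 159.5, 171, 202 and 148 CPM in intact cells and 84.1, 66.1, 62.9 and 58.3 CPM in senescent cells. All 8 MmC+ values lay below all 8 MmC- values. The log2 fold change was -1.24 (SE 0.153, adjusted p = 1.17e-05) without GDF11 and -1.33 (SE 0.154, adjusted p = 6.36e-06) with it, by edgeR's quasi-likelihood test. It ranged from -1.33 to -1.10 and from -1.44 to -1.22 respectively when single libraries were left out.

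The catalytic head did not change evenly. ATP5F1B, the catalytic beta subunit and the member with the highest level per length in ATP synthase, lay at 519, 743, 639 and 635 CPM in MmC-/GDF11- and at 483, 537, 532 and 517 CPM in MmC+/GDF11-, so that the groups overlapped. Its log2 fold change was -0.29 (SE 0.101, adjusted p = 0.026 by edgeR). The call was kept in 11 of the 16 fits with a single library left out. The highest adjusted p came without replicate 2 of MmC-/GDF11- (0.103 by edgeR). ATP5F1A, the alpha subunit, fell by 0.63 (SE 0.101, adjusted p = 0.000124) on the log2 scale, from 440.2 to 566 CPM in intact cells to 297 to 341 CPM in senescent cells. ATP5F1D, the delta subunit, fell by 0.78 (SE 0.199, adjusted p = 0.00501). The ratio of ATP5F1C to ATP5F1B, both in CPM, was 0.215 to 0.266 in MmC-/GDF11- and 0.107 to 0.163 in MmC+/GDF11-, and 0.227 to 0.291 against 0.118 to 0.169 with GDF11; this is a description, since the pair was chosen after its values were seen.

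**Figure D2:**
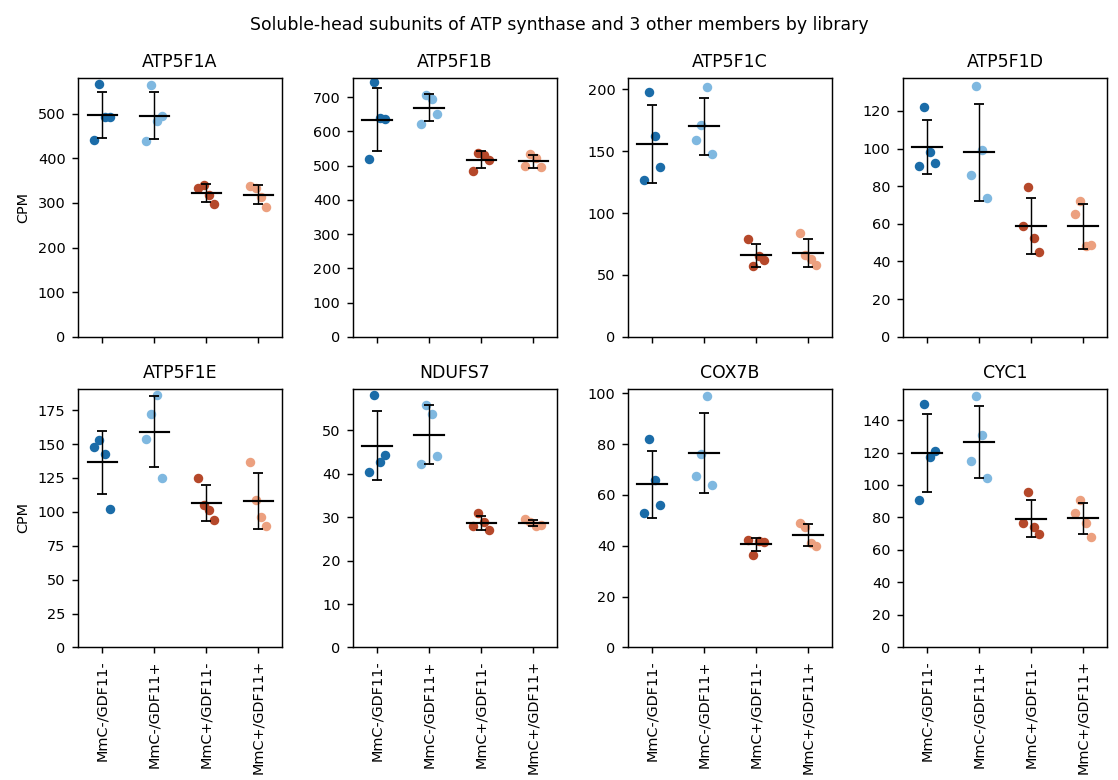
CPM of the 5 soluble-head subunits of ATP synthase and of NDUFS7, COX7B and CYC1 in each library; points are single libraries, the bar is the mean and the error bar ±1 SD of 4 libraries, and each axis starts at 0. For ATP5F1C the MmC+ libraries lie between 57.3 and 84.1 CPM, below all MmC- libraries, while for ATP5F1B the MmC-/GDF11- and MmC+/GDF11- libraries overlap.

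In the membrane and stalk parts of ATP synthase all members had log2 fold changes below 0, but the size varied and not all were called. ATP5MG was at -0.30 (adjusted p = 0.0641 by edgeR) without GDF11 and at -0.38 (adjusted p = 0.0206) with it. ATP5MC3, 1 of the 3 genes for the c subunit of the rotor ring, lay at 143, 233, 179 and 182 CPM in MmC-/GDF11- and at 121, 105, 114 and 108 CPM in MmC+/GDF11- (log2 fold change -0.72, SE 0.127, adjusted p = 0.000271). Its companions ATP5MC2 and ATP5MC1 fell by 0.55 and 0.36 on the same scale. The call of ATP5MC1 was kept in 8 of the 16 fits with a single library left out. ATP5ME, the small e subunit, changed by -0.58 (adjusted p = 0.00747) without GDF11 and by -0.76 (adjusted p = 0.00112) with it. Among the peripheral stalk genes, ATP5PB fell by 0.60 and ATP5PF by 0.35 without GDF11, whereas ATP5PD was at -0.26 (adjusted p = 0.128) and called with GDF11 alone (-0.48, adjusted p = 0.00843). With the replicate block ATP5PD passed without GDF11 as well (-0.24, adjusted p = 0.0256 by edgeR).

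**Figure D3:**
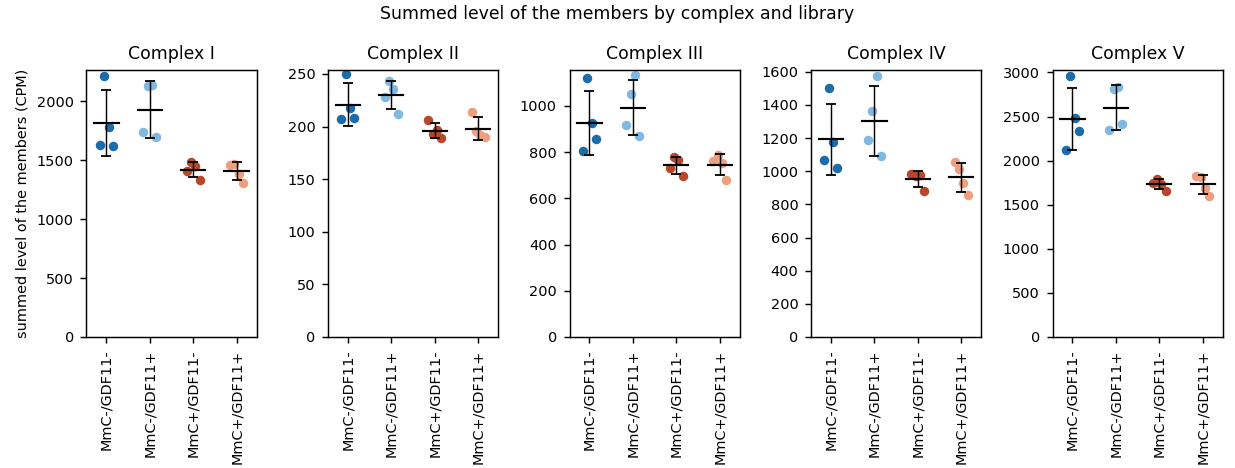
Summed CPM of the members of each complex in each library; points are libraries, the bar is the mean and the error bar ±1 SD of 4 libraries, and each axis starts at 0. The MmC+ means lie below the MmC- means in every complex, by 11.1% in complex II and 29.9% in complex V without GDF11.

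In complex I, which oxidises NADH, 19 of 35 tested members were lower and 1 was higher after MmC without GDF11. With GDF11, 25 were lower, and the medians were -0.34 and -0.45. Those lower were 54.3% and 71.4%, against 22.4% and 23.3% of all tested genes. The summed level fell by 21.7% and 27.1%. Core subunits, those conserved from bacteria, and accessory subunits were both called: 5 of 7 core members were lower without GDF11 (median -0.35) and 14 of 28 accessory members (median -0.34), with 6 and 19 lower with GDF11. NDUFS7, a core subunit that binds an iron-sulfur cluster close to the ubiquinone site, lay at 40.4, 58.1, 42.8 and 44.4 CPM in MmC-/GDF11- and at 28, 30.9, 28.9 and 27 CPM in MmC+/GDF11-. The groups were apart and the log2 fold change was -0.69 (SE 0.114, adjusted p = 0.000153); with GDF11 it was -0.78 (adjusted p = 5.76e-05).

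Accessory subunits of both arms of complex I were among the greatest falls. NDUFB6, in the membrane arm, fell by 0.63 (SE 0.111, adjusted p = 0.000285) without GDF11 and by 0.74 with it. NDUFS6, a zinc-binding subunit of the matrix arm, was at 54.3, 78.6, 55.5 and 54.8 CPM in MmC-/GDF11- and at 39.1, 44.5, 39.1 and 35.1 CPM in MmC+/GDF11- (log2 fold change -0.62, SE 0.125, adjusted p = 0.000795). Without replicate 2, its intact values are close together and still above every senescent value. NDUFB7, another membrane arm subunit, was at 84.9, 134, 94.1 and 80.3 CPM against 66.4, 69.5, 65.3 and 59.6 CPM without GDF11 (log2 fold change -0.59, adjusted p = 0.0084) and at 93.7, 138, 139 and 87.4 CPM against 69.8, 68.5, 62.9 and 58.6 CPM with it (-0.82, adjusted p = 0.000871). Its groups did not overlap in either comparison.

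The only member called higher was NDUFA7, and it rests on very few counts. It had 8 to 47 counts per library and lay at 0.13, 0.155, 0.157 and 0.106 CPM in MmC-/GDF11- and at 0.253, 0.268, 0.335 and 0.403 CPM in MmC+/GDF11- (log2 fold change 1.19, SE 0.282, adjusted p = 0.00276); with GDF11 it did not pass (0.66, adjusted p = 0.0618). Of its canonical transcript, 77.9% is shared with another gene on the same strand, so how reads were assigned is uncertain. Other low members share this limit: NDUFA6 had 0 to 7 counts and was not tested, with 100% of its 31-base words found elsewhere only on contigs outside the primary chromosomes; NDUFA3 had 2 to 18 counts; and NDUFV2, a core subunit, had 27 to 84 counts and shares 90% of its canonical transcript with another gene on the same strand. Their low levels are levels as counted. In all, 12 members share more than 50% of their transcript or words in such ways. Without the 11 of them that were tested, 39 of 64 members (60.9%) were lower and 0 higher without GDF11. With GDF11, 49 of 64 (76.6%) were lower. Of all tested genes, 22.4% and 23.3% were lower.

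Complex II, succinate dehydrogenase, had the smallest difference in summed level of the 5 complexes, -11.1% without and -13.8% with GDF11. Of its 4 members, 25% were called lower without GDF11 and 50% with it, against 22.4% and 23.3% of all tested genes. SDHA, the flavoprotein that oxidises succinate, was the only subunit called without GDF11: it lay at 18.6, 24.9, 17.9 and 20.9 CPM in MmC-/GDF11- and at 15.5, 15.3, 14.8 and 13.1 CPM in MmC+/GDF11- (log2 fold change -0.49, SE 0.111, adjusted p = 0.00211), with 69.4% of its transcript shared on the same strand. SDHB, the iron-sulfur subunit, was at -0.24 (SE 0.103, adjusted p = 0.0663) without GDF11 and at -0.37 (adjusted p = 0.00764) with it. The membrane anchors SDHC and SDHD were at -0.04 (adjusted p = 0.819) and -0.16 (adjusted p = 0.0813) without GDF11, and much of their sequence (76.3% and 66.6% of words) also occurs elsewhere in the genome. With the replicate block, SDHB and SDHD passed the test without GDF11 (adjusted p = 0.00798 and 0.0372).

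In complex III, 3 of 9 members (33.3%) were lower without GDF11 and 5 (55.6%) with it, with medians of -0.27 and -0.41. Of all tested genes, 22.4% and 23.3% were lower, and 45.3% and 46.7% were called in either direction. CYC1, the haem-bearing cytochrome c1, lay at 90.8, 149.7, 117 and 121 CPM in MmC-/GDF11- and at 76.6, 95.7, 73.9 and 70.1 CPM in MmC+/GDF11- (log2 fold change -0.60, SE 0.154, adjusted p = 0.00499), so the highest senescent value passed the lowest intact value. UQCRFS1, the Rieske iron-sulfur protein, fell by 0.48 (SE 0.117, adjusted p = 0.00336), and UQCRB, a small subunit beside cytochrome b, by 0.43 (SE 0.0978, adjusted p = 0.00201). UQCRQ, another small subunit, was at -0.36 (adjusted p = 0.0709) without GDF11 and at -0.72 (SE 0.156, adjusted p = 0.00147) with it. The difference between these is the interaction, -0.36 (SE 0.22, adjusted p = 1 by edgeR). The core proteins UQCRC1 and UQCRC2 were at -0.24 and -0.14 without GDF11 and were called in neither comparison. With the replicate block UQCRC1, UQCRQ and UQCRH passed without GDF11 (adjusted p = 0.0204, 0.012 and 0.0409 by edgeR). By that fit UQCRC1 passed with GDF11 too (adjusted p = 0.00356).

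In complex IV, cytochrome c oxidase, 7 of 12 members (58.3%) were lower without GDF11 and 7 with it, with medians of -0.35 and -0.34. Of all tested genes, 22.4% and 23.3% were lower, and 45.3% and 46.7% were called in either direction. Without GDF11, the calls of COX5A, COX5B, COX6C, COX8A and NDUFA4 were each lost in some fits with a single library left out. COX7B, a small membrane subunit, was at 52.8, 81.9, 65.8 and 56.1 CPM in MmC-/GDF11- and at 42.2, 36.5, 41.9 and 41.4 CPM in MmC+/GDF11- (log2 fold change -0.66, SE 0.145, adjusted p = 0.00158). COX7C fell by 0.55 (SE 0.138, adjusted p = 0.00432) and NDUFA4 by 0.52 (SE 0.166, adjusted p = 0.0179) without GDF11. The call of NDUFA4 was kept in 13 of the 16 fits with a single library left out. Its highest adjusted p came without replicate 2 of MmC-/GDF11- (0.0761 by edgeR). COX4I1, the regulatory subunit isoform found in most tissues, was at -0.17 (adjusted p = 0.349), and its lung isoform COX4I2 had at most 5 counts in any library. NDUFA4L2, a paralogue of NDUFA4, lay at 1.34 ± 0.641 CPM in MmC-/GDF11- and 1.52 ± 0.227 CPM in MmC+/GDF11- (SD, n = 4), far under the 109 ± 19.1 and 76.3 ± 8.59 CPM of NDUFA4.

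The log2 fold changes of the COX7A isoforms had opposite signs after MmC in both comparisons, and a difference between the isoforms was not tested. COX7A1, the heart and skeletal muscle isoform, was at 21.2, 16.7, 12.6 and 10.3 CPM in MmC-/GDF11- and at 28, 20.2, 19 and 15.6 CPM in MmC+/GDF11-, whereas COX7A2, the isoform of most tissues, was at 79.9, 131, 104 and 90.1 CPM against 82.1, 84.4, 96 and 91.8 CPM. Neither passed the test (COX7A1 0.45, SE 0.281, adjusted p = 0.211; COX7A2 -0.19, SE 0.139, adjusted p = 0.272). COX7A1 differed strongly by replicate number in both groups and, without GDF11, was higher after MmC within each number; with the number as a block it passed (0.46, adjusted p = 0.0006). With GDF11 it was at 23.7, 17, 19 and 10.9 CPM in intact cells and at 30.5, 21, 17.4 and 14.2 CPM in senescent cells, so that replicate 3 was lower after MmC. There the log2 fold change was 0.23 (adjusted p = 0.521, and 0.0483 with the block, by edgeR). Its share of the COX7A1 and COX7A2 CPM was 20.9%, 11.3%, 10.8% and 10.3% in MmC-/GDF11- and 25.4%, 19.3%, 16.5% and 14.5% in MmC+/GDF11-. Per length of the canonical transcript, COX7A1 stood at a mean of 96.9 and COX7A2 at 474 TPM (a level scaled to length and depth) in MmC-/GDF11-; per summed exon length the means were 98.9 and 201 TPM.

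**Figure D4:**
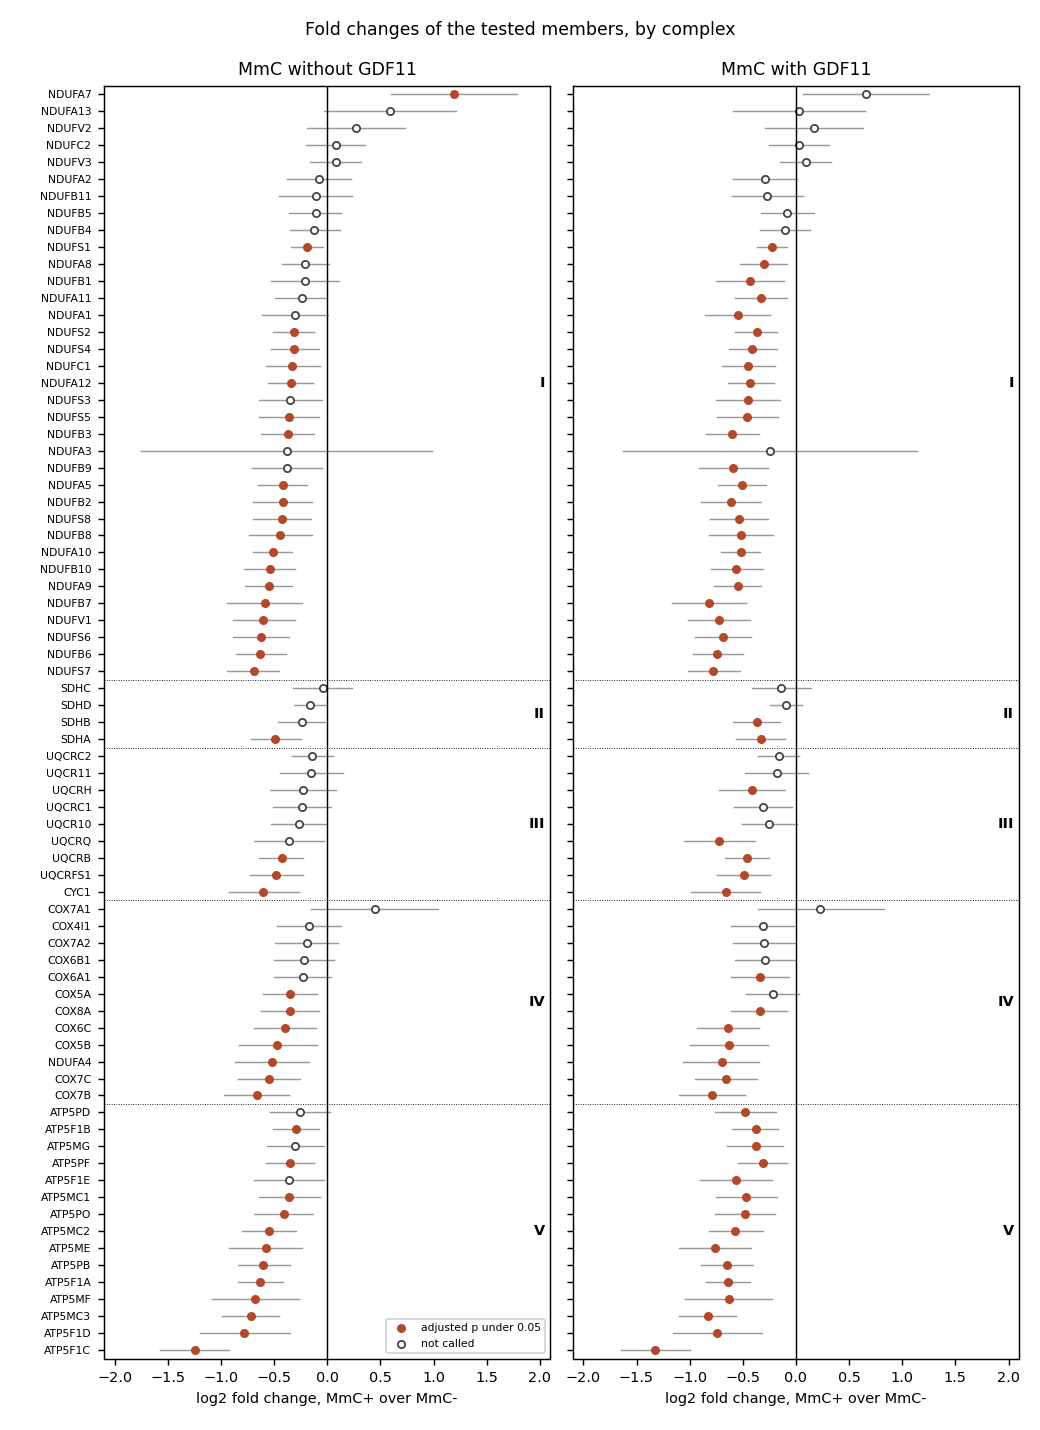
Log2 fold change of each tested member after MmC, without GDF11 (left) and with it (right), with 95% intervals as grey lines; filled points have an adjusted p under 0.05 and open points do not, and members are grouped by complex. ATP5F1C stands furthest to the left in both panels, and all 15 complex V members are filled at the right.

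GDF11 itself changed no member by these tests. In intact cells 0 of 75 members were called and 0 had an unadjusted p under 0.05, and the same counts held in senescent cells and for the interaction of MmC and GDF11 (edgeR). Over all 19103 genes 0 were called in each of these comparisons (0%), and 226 genes (1.18%), 96 (0.503%) and 172 (0.900%) had an unadjusted p under 0.05. DESeq2 and limma-voom also called 0 members; over all genes DESeq2 called 1 in intact cells and 0 in the other comparisons, and limma-voom 0 in each. In intact cells 63 of 75 members had a log2 fold change above 0 and the median was 0.08, against -0.00 over all genes; in senescent cells 34 were above 0 and the median was -0.00. The member with the lowest p in intact cells was UQCRQ, at 0.31 (SE 0.155, adjusted p = 1 by edgeR). Over the 64 members without doubtful counting, 95% intervals of the log2 fold change had median limits of -0.17 and 0.35 in intact cells. In senescent cells the median limits were -0.28 and 0.26. Most changes within these limits were not detectable by this fit, which left out the replicate number. The GDF11 comparisons share their groups with the MmC comparisons.

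The nuclear-encoded members and the mtDNA-encoded subunits moved in opposite directions after MmC. Of the 13 mtDNA-encoded chain subunits, 6 were higher and 0 lower without GDF11 (median 0.52). With GDF11, 11 were higher and 0 lower (median 0.91). Those higher were 46.2% and 84.6% of the 13, against 22.9% and 23.4% of all tested genes. In either direction, 45.3% and 46.7% of all tested genes were called, so without GDF11 the share called was near that of all genes. MT-CO1, the catalytic subunit of complex IV, lay at 7482, 5719, 6395 and 6844 CPM in MmC-/GDF11- and at 9796, 9418, 10359 and 9431 CPM in MmC+/GDF11- (log2 fold change 0.56, SE 0.163, adjusted p = 0.0102). MT-ND1, a membrane subunit of complex I, changed by 0.80 (SE 0.187, adjusted p = 0.00254), whereas MT-ND6, on the other mtDNA strand, was at 0.08 (adjusted p = 0.694). The ratio of the summed mtDNA-encoded to the summed nuclear-encoded CPM was 4.03, 2.61, 3.43 and 4.05 in MmC-/GDF11-, 3.3, 1.3, 2.82 and 3.43 in MmC-/GDF11+, 6.24, 5.84, 6.93 and 6.81 in MmC+/GDF11-, and 6.24, 7.19, 7.39 and 7.23 in MmC+/GDF11+. All MmC+ libraries lay above all MmC- libraries. Replicate 2 of MmC-/GDF11+ had an mtDNA-encoded sum of 9891 CPM, against 21191 to 22321 CPM in the other 3; without it, 11 of 13 were higher in both comparisons, with medians of 0.53 and 0.72. Libraries were made from poly(A) RNA, and these levels are those of polyadenylated mitochondrial transcripts.

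**Figure D5:**
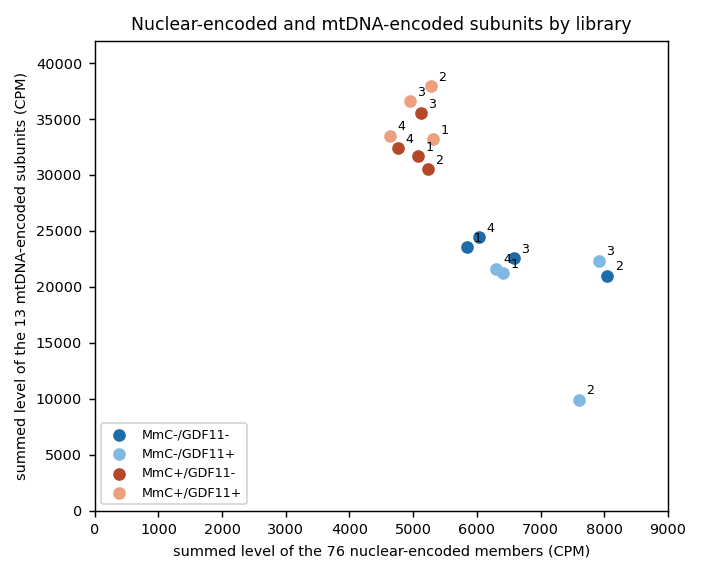
Summed CPM of the 76 nuclear-encoded members (x axis) and of the 13 mtDNA-encoded subunits (y axis) in each library, numbered by replicate and coloured by group; both axes start at 0. The 8 MmC+ libraries lie at the upper left, the 8 MmC- libraries at the lower right, and replicate 2 of MmC-/GDF11+ is lowest at 9891 CPM.

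Genes that serve the chain without being members of the set were also mostly lower where called. Of 49 assembly factors, 22 were lower and 3 higher without GDF11, and 25 lower and 1 higher with it. The medians were -0.22 and -0.27. Those lower were 44.9% and 51% of the list, against 22.4% and 23.3% of all tested genes. In either direction 51% and 53.1% of the list were called, near the 45.3% and 46.7% of all tested genes. Those higher without GDF11 were COX19, SDHAF2 and UQCC1, and COX19 was higher with it. UQCC3 and UQCC2, assembly factors of complex III, fell by 0.81 (adjusted p = 0.00047) and 0.68 (adjusted p = 0.000704), and COA1, an assembly factor of complex IV, by 0.68 (adjusted p = 0.000215). Of 7 tested subunits, isoforms and carriers outside the rule, 1 was lower without GDF11 (ATP5MJ, a small ATP synthase subunit, -0.40, adjusted p = 0.0319) and 4 with it (ATP5MJ, ATP5MK, ATP5IF1 and NDUFAB1). Those lower were 14.3% and 57.1% of these 7, against 22.4% and 23.3% of all tested genes. CYCS, the electron carrier cytochrome c, was at 0.20 (adjusted p = 0.224), and passed with the replicate block (adjusted p = 0.04 by edgeR).

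Regulators of mitochondrial gene expression were mostly not called. Of 14, 4 were lower (NRF1, GABPA, TFB1M and POLG) and 0 higher in each comparison, a share of 28.6% lower against 22.4% and 23.3% of all tested genes. NRF1, a transcription factor of respiratory genes, fell by 0.38 (SE 0.111, adjusted p = 0.0104), and TFB1M and POLG, which serve mitochondrial ribosomal RNA modification and mtDNA replication, fell by 0.51 (adjusted p = 0.0188) and 0.29 (adjusted p = 0.00659). The coactivator PPARGC1A had 6 to 48 counts and was at 0.03 (SE 0.454, adjusted p = 0.962). TFAM, which packages mtDNA, was at -0.09 (adjusted p = 0.744) and ESRRA, a nuclear receptor, at 0.19 (adjusted p = 0.0767); with the replicate block ESRRA passed (adjusted p = 0.0349 by edgeR).

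Promoter letters known from respiratory genes were looked up in RefSeq sequences (GRCh38.p14) for the 250 bases before the start site, on both strands; 61 of the 76 members matched. The ETS/GABP letters CCGGAAG were found in 16 members (26.2%) and in 11.8% of 15843 protein-coding promoters. The palindromic NRF1 letters (those in capitals for ATP5F1C below) were found in 3 (NDUFB4, SDHD and ATP5F1C; 4.92%) against 1.48%, and those of YY1 in 2 (NDUFS8 and ATP5PF; 3.28%) against 0.915%. The 16 members with the ETS/GABP letters had a median log2 fold change of -0.25 after MmC without GDF11 and -0.35 with it, and the 44 tested members without them -0.38 and -0.47. Among the 3 members with the NRF1 letters, NDUFB4 and SDHD changed little and were not called, unlike ATP5F1C. Without GDF11 they were at -0.12 and -0.16 (adjusted p = 0.422 and 0.0813 by edgeR), and with it at -0.10 and -0.09. A match is a description of the letters only. The stretches of 3 called members are shown, with the matched letters in capitals. The NRF1 letters lie 22 to 13 bases before the RefSeq start of ATP5F1C (chr10:7788145-7788174, forward strand), the member with the greatest fall. That stretch overlaps an exon in GENCODE, where the gene starts further upstream. The ETS/GABP letters are shown before NDUFB7 (chr19:14572067-14572186, reverse strand) and COX5B (chr2:97645942-97646061, forward strand). NDUFB7 and COX5B fell by 0.59 and 0.47 without GDF11. The groups of COX5B overlapped there. Its call (adjusted p = 0.0383 by edgeR) was kept in 10 of the 16 fits with a single library left out.
ATP5F1C: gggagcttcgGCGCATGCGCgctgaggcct
NDUFB7: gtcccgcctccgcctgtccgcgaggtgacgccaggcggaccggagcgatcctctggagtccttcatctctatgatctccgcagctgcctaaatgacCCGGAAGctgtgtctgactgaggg
COX5B: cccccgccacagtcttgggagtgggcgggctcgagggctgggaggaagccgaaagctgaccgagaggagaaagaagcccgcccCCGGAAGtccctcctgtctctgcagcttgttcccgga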

How the data were processed

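The deposited table holds raw counts per gene for 16 libraries of the ASC52telo line, prepared with a directional poly(A) kit; the authors aligned reads to hg38 with HISAT2 2.2.1 and counted them with featureCounts 2.0.1. Strand, pair and multi-mapping settings are not given in the sources used here. Without them, overlapping or duplicated genes may be under-counted. Libraries were grouped by their labels, 4 per group. Of 60649 identifiers, 60463 matched GENCODE v44, from which symbols and coordinates were taken. From the counts, genes passing filterByExpr (minimum count 10, total 15) were fitted with edgeR 4.0.16 in R 4.3.3 (TMM, robust quasi-likelihood, 1 mean per group over all 16 libraries, no block), which left 19103 genes and 75 of the 76 members. Standard errors are the log2 fold change over the root of F, and intervals are at 95%. CPM are TMM-normalised. The fit was tested on simulated data: in the MmC comparison without GDF11 (18773 genes) it called 31.3% of genes changed 1.5-fold, 79.1% of those changed 2-fold and 95.5% of those changed 4-fold.

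Levels per length used the summed exons or, as an alternative added after seeing the data, the canonical transcript. Counting was called doubtful where over 50% of the canonical transcript was shared with another gene on the same strand or over 50% of its 31-base words occurred elsewhere.

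The members and lists were chosen with earlier results of these data known. Members named are those with the 3 greatest called changes per complex and MmC comparison, the 4 SDH genes, the lowest p-values for GDF11, isoform pairs, extremes of level and doubtful counting; others were named for their role after their values were seen. Alternatives were RLE and upper-quartile scaling, other filters, a fit of the compared libraries alone, a replicate block, limma-voom (limma 3.58.1), DESeq2 1.42.0, each library left out, and number 1 of every group left out. Deviations of same-numbered libraries had correlations of 0.368, 0.197, 0.113 and 0.235 in the MmC comparison without GDF11. In the GDF11 comparison of senescent cells they were 0.818, 0.448, 0.466 and 0.583. The main fit did not pair equal numbers in any comparison. The replicate block, run as an alternative, took equal numbers as pairs in every comparison. In the MmC comparison with GDF11 the correlations were 0.311, 0.16, 0.0293 and 0.266. In the GDF11 comparison of intact cells they were 0.504, 0.264, 0.0982 and 0.502. All were positive, and those of intact cells were not clearly lower than those of the MmC comparison without GDF11. The result of 1 gene of the tricarboxylic acid cycle list is not reported here.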

Additional observations from a re-analysis of the deposited data

Results flagged for a closer look

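Values that stood apart from the other 3 libraries of their group by Dixon's 95% criterion were looked for in 176 groups of values; 8 were found, and chance gives about 8.8. In intact cells, NDUFS6 was at 78.6 CPM in replicate 2 of MmC-/GDF11- against 54.3 to 55.5 CPM, COX7A2 at 141 CPM in replicate 3 of MmC-/GDF11+ against 97.9 to 105 CPM, and NDUFV2 at 0.617 CPM in replicate 2 of MmC-/GDF11+ against 0.345 to 0.391 CPM. The summed mtDNA-encoded level was 9891 CPM in that same library against 21191 to 22321 CPM. In senescent cells, the summed complex IV level was 881 CPM in replicate 4 of MmC+/GDF11- against 970 to 982 CPM, and COX7B was at 36.5 CPM in replicate 2 against 41.4 to 42.2 CPM. NDUFA6 was at 0.0112 CPM in replicate 4 of MmC-/GDF11+ and at 0.0806 CPM in replicate 4 of MmC+/GDF11-, with 0 counts in the other 3 libraries of each group.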

How the results depend on the processing

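No called value that is reported changed sign under the alternatives run; some values that were not called did, such as SDHC after MmC without GDF11 (-0.13 to 0.04 with single libraries left out). Over the 10 alternatives other than single left-out libraries, the set without doubtfully counted members included, 36 to 57 members were called after MmC without GDF11 and 47 to 62 with it, against 43 and 54; with single libraries left out the counts were 26 to 46 (25 to 45 lower) and 42 to 57. The lowest counts without GDF11 came without replicate 2 of MmC-/GDF11- and without replicate 4 of MmC+/GDF11- (28 called, 27 lower); the cause was not tested. The median of complex II with GDF11 ranged from -0.29 (without replicate 1 of MmC+/GDF11+) to -0.20 with single libraries left out and moved to -0.30 without number 1 of every group. With the replicate block, 57 members were called without GDF11 (55 lower, 2 higher) and 62 with it (60 lower, 2 higher; the higher ones were NDUFA7 and COX7A1 in each case), all 43 and 54 earlier calls were kept, the share of all genes called rose to 57.9% (29.1% lower) and 59% (29.7% lower), and 0 were called for GDF11. GDF11 counts were 0 in every alternative. Scaling moved the median of all genes to at most 0.034. The simulated recovery of 31.3% of 1.5-fold changes limits what small changes could be called.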

Other observations

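Other mitochondrial genes gave values beside which the chain subunits can be read. Of 76 tested mitochondrial ribosome genes, 46 were lower and 1 higher (MRPL33) after MmC without GDF11, and 54 lower and 0 higher with it, with medians of -0.36 and -0.43; those lower were 60.5% and 71.1%, against 22.4% and 23.3% of all tested genes. MRPL1, MRPL48 and MRPL24, proteins of the large mitochondrial ribosomal subunit, fell by 1.11, 1.07 and 0.89 on the log2 scale without GDF11. Of 14 enzymes and subunits of the tricarboxylic acid cycle, 9 (64.3%) were lower in each comparison, against 22.4% and 23.3% of all tested genes. IDH2, which oxidises isocitrate, fell by 1.23 (SE 0.118, adjusted p = 1e-06 by edgeR), FH, the fumarase, by 0.92, and CS, the citrate synthase, by 0.86.

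In glycolysis 2 of 17 genes were higher (HK2, PFKM) and 3 lower (ENO1, LDHB, HK1) after MmC without GDF11, with a median of -0.31; 29.4% of the list was called, against 45.3% of all tested genes. HK2, a hexokinase, rose by 0.86 (SE 0.168, adjusted p = 0.000636 by edgeR), and ENO1, an enolase, and LDHB, a lactate dehydrogenase subunit, fell by 0.87 and 0.66.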
